A study of Mus musculus with 3 samples.

Results

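The genes described here are 9 interferon-stimulated genes of the antiviral response, chosen by name from the 32285 genes of the count tables: the restriction factors Bst2, Ifitm3 and Rsad2, the kinase gene Cmpk2 beside Rsad2, Trim30a, the apolipoprotein L genes Apol9a and Apol9b, Ifi44 and Xaf1. All 9 were found once each by symbol, and they were chosen with earlier results of these data known. They were followed in single cells from organoids, 3-dimensional epithelial cultures in Matrigel, made of submandibular salivary gland cells from C57BL/6 mice that were 8 to 12 weeks old. All groups were kept in medium with conditioned Wnt3a and R-spondin1, EGF, FGF2 and dexamethasone, a glucocorticoid. The control group was not irradiated, the photon group received 7 Gy of photons on day 5 and the proton group a plateau-region proton dose of 7 Gy on the same day. All were collected on day 11, 6 days after irradiation, and live cells negative for propidium iodide were sorted for droplet sequencing of transcript ends. The organoids came from 4 animals, and the labels tie no cell to an animal. Each group is 1 library, so differences have no replicate check and none was tested across samples. Values compare libraries. Ranges in parentheses are exact 95% intervals for counting error alone.

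Interferons are secreted proteins that cells release on sensing foreign or misplaced nucleic acid. Type I interferons bind the receptor chains Ifnar1 and Ifnar2, type III interferons bind Ifnlr1 and Il10rb, and both activate the kinases Jak1 and Tyk2. Their signal leads to a complex with Irf9 that enters the nucleus and binds the interferon-stimulated response element, a pair of GAAA words found before many target genes. Salivary duct epithelium is a barrier tissue that carries receptors of both types. Restriction factors among the targets block single steps of a virus life cycle, such as entry, genome copying or release.

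Promoter sequences are shown because the 9 genes are known targets of one pathway while their levels differed widely among the libraries. RefSeq windows of GRCm38.p6, from 250 bases before to 50 bases after a start, matched all 9 genes by symbol, with 12 windows in all. The core of the response element was searched as GAAANNGAAA or its complement TTTCNNTTTC, and 6 of the 9 genes held it (Bst2, Ifitm3, Trim30a, Rsad2, Apol9a and Apol9b), against 3.99% of all 27025 genes of the table. By windows it was 9 of 12, against 3.44% of 32851. After these sequences had been seen, the form with 1 base between the words, GAAANGAAA or TTTCNTTTC, was searched as well, and Ifi44, Xaf1 and Trim30a held it, against 3.70% of all genes and 3.17% of all windows. Cmpk2 held neither form in its window. Capitals below mark the matches, overlapping ones as 1 run, and each stretch reads 5′ to 3′ on its gene's strand.
Bst2 (chr8:71537567-71537622, minus strand): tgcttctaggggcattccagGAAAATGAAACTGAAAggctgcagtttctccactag
Ifitm3 (chr7:141010715-141010762, minus strand): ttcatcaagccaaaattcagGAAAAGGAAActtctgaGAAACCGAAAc
Trim30a (chr7:104465165-104465249, minus strand): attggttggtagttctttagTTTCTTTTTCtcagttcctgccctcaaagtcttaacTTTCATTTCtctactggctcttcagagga
Rsad2 (chr12:26456543-26456592, minus strand): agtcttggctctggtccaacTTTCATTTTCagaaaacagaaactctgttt
Apol9a (chr15:77411104-77411159, minus strand): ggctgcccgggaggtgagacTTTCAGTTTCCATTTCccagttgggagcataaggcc
Apol9b (chr15:77729015-77729070, plus strand): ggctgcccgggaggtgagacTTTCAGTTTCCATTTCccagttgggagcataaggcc
Ifi44 (chr3:151749930-151749978, minus strand): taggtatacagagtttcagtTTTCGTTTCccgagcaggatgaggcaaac
Xaf1 (chr11:72301619-72301658, plus strand): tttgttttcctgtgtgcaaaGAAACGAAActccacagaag
A match is a description of letters and not a bound site. The Bst2 matches lay between 130 and 115 bases before the start and overlapped each other. The Rsad2 match lay 120 to 111 bases before its start, and that of Ifi44 48 to 40 bases before. At the Trim30a start shown, the form with 2 bases between the words lay 36 to 27 bases before and the form with 1 base began at the first base of the transcript. A second Trim30a start in the table, not shown, held its own match 3 bases after it. In Ifitm3 the 2 matches began 3 and 20 bases after the start, and in Xaf1 the match began 11 bases after it. The stretches of Apol9a and Apol9b were the same, and the first windows of these genes were identical over all 278 aligned bases.

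After filtering, the libraries held 13219 control, 15041 photon and 13956 proton cells, with 39514768, 46936995 and 36692939 transcript tags counted by unique molecular identifier (UMI). Median UMIs per cell were 2757, 2808 and 2223, and mitochondrial genes took 3.29%, 2.23% and 1.80% of UMIs. Pairs of libraries shared 55 to 61 cell barcodes. The cells carried epithelial markers in every library: luminal duct markers summed to 2994 to 5076 UMIs per 1000000 UMIs of the library (CPM) and basal duct markers to 2822 to 4556 CPM. Of 9 acinar markers 2 to 4 were at 0 in each library, and the list summed to 36.1 to 57.3 CPM. The 10 immune markers summed in the same order to 4.58, 4.32 and 4.82 CPM, with Siglech and Tyrobp at 0 in all 3 libraries and Ptprc at 0 in control.

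All 9 genes were at least 1.5-fold higher in photon than in control, and all 9 were at least 1.5-fold higher in proton than in control. Over all genes with a mean of at least 25 CPM, 5.75% of 5790 reached that fold in photon and 10.8% of 5870 in proton, and 8.19% and 14.9% were lower by as much. At a fold of 2 it was 8 of the 9 in each, all but Ifitm3, beside 2.28% and 3.44% of all genes. Of the 9 genes 8 passed this minimum in the photon comparison and 6 in the proton comparison. Only Bst2, Ifitm3 and Ifi44 reached 25 CPM in control itself, and these 3 were at least 1.5-fold higher in each irradiated library. A gene below 25 CPM in control could pass the minimum only by being higher after irradiation. The 9 genes were chosen with earlier results of these data known, so these counts describe the set and do not test it. The median log2 CPM ratio of the 9 was 4.36 in photon and 3.84 in proton, beside medians of -0.11 and 0.00 over all genes. Between the irradiated libraries the differences were far smaller. None (0) of the 9 was at least 1.5-fold higher in proton than in photon, where 22.7% of 5814 genes were, and 2 were at least 1.5-fold lower, Apol9a and Apol9b, where 16.3% of genes were. Only Apol9a was lower by 2-fold, as were 3.89% of genes.

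**Figure D1:**
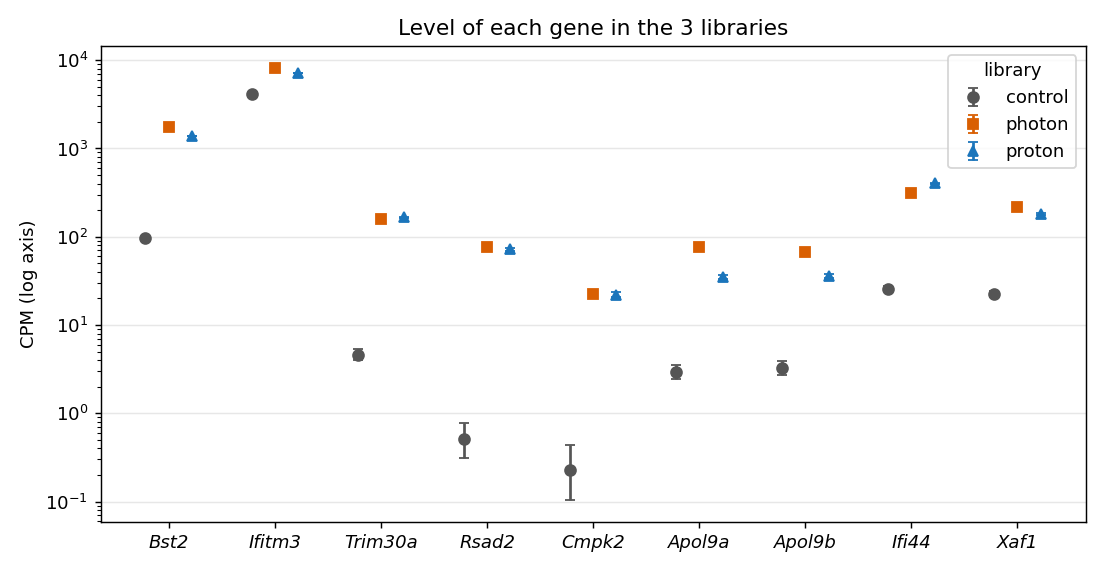
CPM (log axis) of the 9 genes in the control (circles), photon (squares) and proton (triangles) libraries, 1 library each, with exact 95% counting intervals. Both irradiated libraries lie above control for each gene. Ifitm3 starts at 4142 CPM in control, and Apol9a and Apol9b stand lower in proton than in photon.

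Bst2 (ENSMUSG00000046718, chromosome 8, 71534255 to 71537456, minus strand) encodes tetherin, a membrane protein that holds budding enveloped virions at the cell surface. Its level was 96.3 CPM without irradiation, 1754 CPM after photons and 1379 CPM after protons. The photon library was thus 18.2-fold (17.6 to 18.8) and the proton library 14.3-fold (13.9 to 14.8) above control, and proton stood at 0.786 of photon (0.778 to 0.795). Counting error is small at 3804 or more UMIs, so these intervals say little about what a second library would give. After each cell was thinned to 2000 UMIs, 15.8% of control cells held a Bst2 UMI (15.1% to 16.5%), as did 92.3% of photon cells and 87.7% of proton cells. Cells with the gene held a mean of 1.22, 3.90 and 3.29 Bst2 UMIs of 2000. A Bst2 UMI was thus detected in a minority of thinned control cells and in most thinned cells of both irradiated libraries. Detection at 2000 UMIs depends on level, so these shares do not count the cells that use the gene.

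Ifitm3 (ENSMUSG00000025492, chromosome 7, 141009586 to 141010770, minus strand) encodes an endosomal membrane protein that blocks fusion of entering viruses. It was already abundant in control, at 4142 CPM without irradiation, 8221 CPM after photons and 7096 CPM after protons. Its ratios were the smallest of the 9 genes, 1.98 (1.97 to 2.00) in photon and 1.71 (1.70 to 1.72) in proton. Almost every thinned cell held it, with 98.9% in control, 99.9% in photon and 99.3% in proton, so the difference lay in UMIs per cell: cells with the gene held a mean of 8.66, 16.9 and 14.9 Ifitm3 UMIs of 2000. Ifitm3 supplied 96.4% of the UMIs of the 9 genes in control, 75.4% in photon and 75.6% in proton. A sum over the 9 genes therefore follows Ifitm3: it was 2.54-fold higher in photon and 2.19-fold in proton, against 17.2-fold and 14.7-fold for the other 8 summed.

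Trim30a (ENSMUSG00000030921, chromosome 7, 104409025 to 104465193, minus strand) belongs to a rodent family of tripartite motif proteins and restrains signalling downstream of Toll-like receptors. It stood at 4.63 CPM without irradiation, 159 CPM after photons and 165 CPM after protons. These are ratios of 34.4 (29.7 to 39.997) and 35.7 (30.8 to 41.6), and the irradiated libraries were nearly level, with proton at 1.04 of photon (1.00 to 1.07). A Trim30a UMI was found in 0.852% of thinned control cells, 26.3% of photon cells and 27.1% of proton cells. Of the 91-base words in the last 500 bases of its transcripts, 17.7% also occur in its paralog Trim30d, so reads there could have been split or discarded in counting.

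Rsad2 (ENSMUSG00000020641, chromosome 12, 26442746 to 26456452, minus strand) encodes viperin, an enzyme that turns CTP into a chain-terminating nucleotide. Only 20 Rsad2 UMIs were counted in control, a level of 0.506 CPM, against 77.3 CPM after photons and 72.3 CPM after protons. The ratios were 153 (98.7 to 250) and 143 (92.3 to 234), the largest of the 9 and among the least precise, since they rest on those 20 UMIs. Despite these ratios a UMI of it was found in few cells: 0.0936% of thinned control cells, 8.41% of photon cells (7.90% to 8.95%) and 8.60% of proton cells (8.00% to 9.24%).

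Cmpk2 (ENSMUSG00000020638, chromosome 12, 26469204 to 26479837, plus strand) encodes a mitochondrial kinase of UMP and CMP and lies head to head with Rsad2, 12751 bases away with 0 deposited genes between them. Its 9 control UMIs gave 0.228 CPM, against 22.2 CPM after photons and 22.1 CPM after protons. The ratios were 97.7 (51.2 to 214) and 96.9 (50.8 to 213), and the irradiated libraries were level within counting error, at 0.992 (0.904 to 1.09). Few cells held a UMI of it, 0.0104% of thinned control cells, 3.75% of photon cells and 3.93% of proton cells.

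Apol9a (ENSMUSG00000057346, chromosome 15, 77403789 to 77411135, minus strand) and Apol9b (ENSMUSG00000068246, chromosome 15, 77729039 to 77736382, plus strand) are near copies in the rodent branch of the apolipoprotein L family of lipid-binding proteins. Apol9a stood at 2.94 CPM without irradiation, 77.1 CPM after photons and 35.1 CPM after protons. Apol9b stood at 3.26, 66.8 and 35.6 CPM in the same order. Both were higher in photon than in proton, and both irradiated libraries were above control: Apol9a by 26.3-fold (21.8 to 31.9) and 12.0-fold (9.89 to 14.6), Apol9b by 20.5-fold (17.2 to 24.6) and 10.9-fold (9.10 to 13.2). Proton reached 0.455 of photon for Apol9a (0.427 to 0.485) and 0.533 for Apol9b (0.499 to 0.569). The thinned shares of cells were 0.644%, 13.8% and 6.79% for Apol9a and 0.613%, 12.5% and 6.98% for Apol9b. Of the 91-base words in the last 500 transcript bases, 20.7% of those of Apol9a occur in Apol9b and 52.2% of those of Apol9b in Apol9a, so the assignment of reads to one or the other is uncertain and they are not 2 independent observations.

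Ifi44 (ENSMUSG00000028037, chromosome 3, 151730922 to 151749960, minus strand), a cytoplasmic protein gene named for its induction by interferon, was the member with the highest proton level relative to photon. It stood at 25.8 CPM without irradiation, 309 CPM after photons and 404 CPM after protons. The ratios to control were 12.0 (11.2 to 12.8) and 15.7 (14.7 to 16.7), and proton was at 1.31 of photon (1.28 to 1.34), short of the 1.5-fold size used for counting. The thinned shares of cells were 4.69%, 43.8% and 51.3%.

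Xaf1 (ENSMUSG00000040483, chromosome 11, 72301629 to 72313733, plus strand) encodes a binding partner of Xiap, the inhibitor of caspases, and counters that inhibition. It stood at 22.5 CPM without irradiation, 215 CPM after photons and 181 CPM after protons, ratios of 9.57 (8.93 to 10.3) and 8.03 (7.49 to 8.63). Proton was at 0.840 of photon (0.814 to 0.866). A UMI was found in 4.28% of thinned control cells, 34.1% of photon cells and 30.1% of proton cells.

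**Figure D2:**
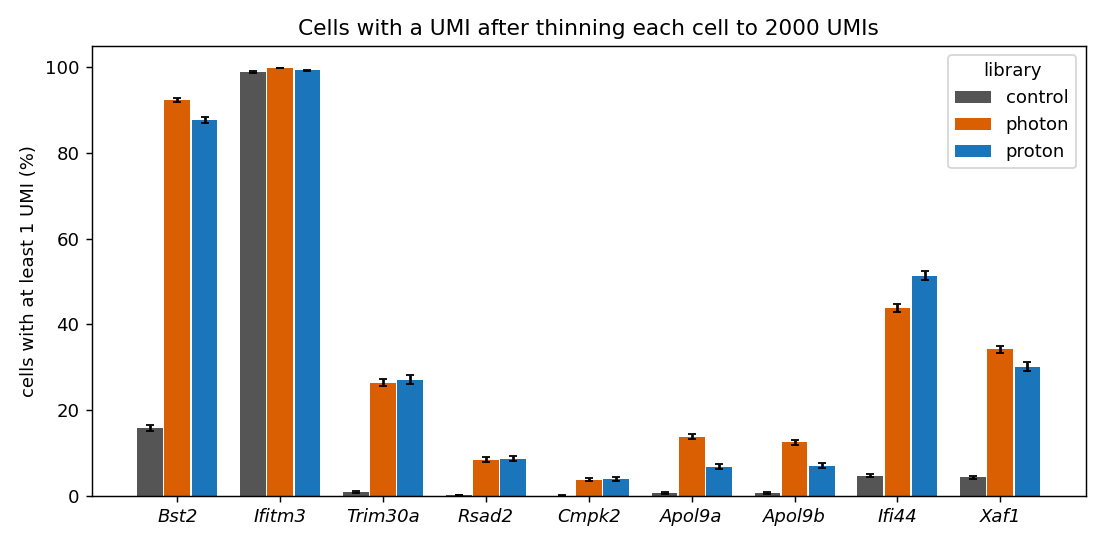
Percent of cells with at least 1 UMI of each gene after every cell was thinned to 2000 UMIs (bars, 1 library each, exact 95% binomial intervals). Ifitm3 is near 100% in all 3 libraries, Bst2 goes from 15.8% to 92.3% and 87.7%, and Rsad2 and Cmpk2 stay under 10% in both irradiated libraries.

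Cells with fewer than 2000 UMIs could not be thinned and were left out, 3599 of control, 4150 of photon and 6017 of proton. Without thinning, the shares in control, photon and proton were 19.5%, 87.7% and 81.6% for Bst2, 0.136%, 10.8% and 10.0% for Rsad2, and 6.42%, 52.7% and 54.1% for Ifi44. A share of cells with a UMI is not a share of cells that use the gene, since free RNA can give UMIs and low levels are missed at this depth. No cell class known to lack these genes was present. In thinned photon cells of cell clusters (defined below), the Rsad2 share ran from 4.72% in cluster 4 to 11.6% in cluster 3 where at least 100 thinned cells were left.

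The genes were seldom detected together in control and often in the irradiated libraries. Each gene alone was also detected in more cells there, and the joint shares expected from the single shares were not computed. The median thinned cell held a UMI of 1 of the 9 genes in control and of 3 in photon and in proton. At least 4 of the 9 were found in 0.239% of control cells, 41.5% of photon cells and 37.4% of proton cells. Only 2 photon cells and 0 proton cells held all 9. Over thinned cells the Pearson correlations of log2(count + 1) between the 36 pairs of genes were low, with medians of 0.05 in photon and 0.03 in proton, and are given as descriptions. Among these 36 pairs Rsad2 and Cmpk2 had the highest value in both, 0.317 in photon (10891 cells) and 0.293 in proton (7939 cells). Rsad2 stood higher still with Cxcl10, a chemokine gene outside the set, at 0.440 in photon and 0.309 in proton. With the chemokine gene Ccl5 it stood at 0.303 and 0.239. Of photon cells with Cmpk2, 33.8% held Rsad2, beside 8.41% of all thinned photon cells. In proton, 29.8% of cells with Cmpk2 held Rsad2, beside 8.60% of all. Cells of 1 library share its depth and free RNA. The annotated bounds of Rsad2 and Cmpk2 do not overlap. Apol9a and Apol9b had correlations of 0.05 and 0.02, and 15.4% of photon cells with Apol9a held Apol9b, beside 12.5% of all.

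Rsad2 and Cmpk2 differed from the other 7 genes in how far their UMIs were gathered in few cells. The 1% of thinned cells richest in Rsad2 held 44.2% of its UMIs in photon and 41.0% in proton, and for Cmpk2 the values were 39.1% and 37.2%. For Bst2 they were 3.58% and 3.96%, and for Ifitm3 2.14% and 2.60%. A gene with few UMIs is gathered in few cells by counting alone, and Apol9a offers a comparison of similar total: with 1684 thinned UMIs in photon, beside 1730 of Rsad2, its richest 1% of cells held 14.1%. Cmpk2 had only 491 thinned UMIs in photon and 371 in proton, the fewest of the 9 genes. The nearest total in proton was Apol9a with 569 UMIs, whose richest 1% of cells held 19.2%. How much of the Cmpk2 shares its low total gives was not tested. Single thinned cells held up to 23 Rsad2 UMIs in each irradiated library and up to 4 Apol9a UMIs in photon.

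The genes were next described in barcodes chosen by the chemokines Ccl5 and Cxcl10, secreted attractants of T cells. Barcodes with at least 8 UMIs of Ccl5 plus Cxcl10, called chemokine-rich here, numbered 2 in control, 323 in photon and 202 in proton. In photon they made up 2.15% of barcodes and 3.15% of UMIs, in proton 1.45% and 2.17%. They were deeper than the rest, with median UMIs of 4219 against 2780.5 in photon and 3315.5 against 2207 in proton, and no doublets had been removed. Not all of them held Rsad2: without thinning 59.1% did in photon and 46.0% in proton, beside 9.70% and 9.50% of the other barcodes. Of the 1619 photon barcodes with an Rsad2 UMI 191 were chemokine-rich, and of the 1399 in proton 93 were.

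Chemokine-rich barcodes held 38.4% of the Rsad2 UMIs in photon (36.8% to 40.02%) and 21.3% in proton (19.8% to 22.9%). For Cmpk2 they held 27.1% (24.4% to 29.9%) and 15.9% (13.5% to 18.6%). For the other 7 genes the share ran from 3.36% for Ifitm3 to 5.81% for Trim30a in photon and from 2.30% for Apol9b to 3.18% for Trim30a in proton. The intervals of all 7 lay above the share of all UMIs in photon, and in proton those of all but Apol9a and Apol9b did. As levels, Rsad2 stood at 942 CPM in chemokine-rich barcodes and 49.1 CPM in the others of photon, a ratio of 19.2 (17.9 to 20.5), and in proton at 712 and 58.1 CPM, 12.3 times as high (11.1 to 13.5). Cmpk2 had ratios of 11.4 and 8.56. The ratios of the other 7 genes were 1.07 to 1.90 in photon and 1.06 to 1.48 in proton. The highest of them in photon were Trim30a at 1.90, Apol9b at 1.63, Xaf1 at 1.60 and Apol9a at 1.54. The share of all genes with such ratios between these barcodes was not computed.

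**Figure D3:**
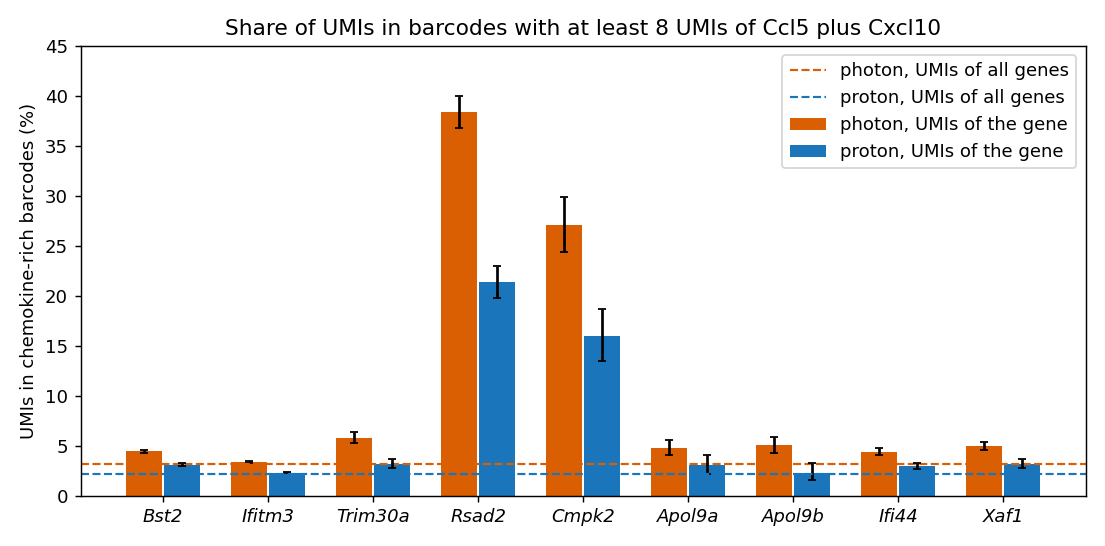
Percent of each gene's UMIs that lay in barcodes with at least 8 UMIs of Ccl5 plus Cxcl10 in photon and proton (bars, 1 library each, exact 95% binomial intervals), with the share of all UMIs in these barcodes as dashed lines at 3.15% and 2.17%. Rsad2 reaches 38.4% and 21.3% and Cmpk2 27.1% and 15.9%, while the other 7 genes are at 5.81% or less.

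Most Rsad2 UMIs were still outside these barcodes, and the higher level in the irradiated libraries did not rest on them. With chemokine-rich barcodes left out, Rsad2 was 102-fold (65.2 to 170) higher in photon and 121-fold (77.2 to 201) higher in proton than in control. Cmpk2 was 82.7-fold and 93.7-fold higher, with proton at 1.13 of photon. For Rsad2 proton stood at 1.18 of photon in the other barcodes (1.11 to 1.26) and at 0.756 in the chemokine-rich ones pooled (0.684 to 0.834). The irradiated libraries held different mixtures of Ccl5-rich and Cxcl10-rich barcodes, given below, and the part of these mixtures was not tested.

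Rsad2 was also higher in cells with few chemokine UMIs. In photon its level was 36.3 CPM in cells with 0 UMIs of Ccl5 plus Cxcl10, 110 CPM with 1 to 3, 387 CPM with 4 to 7, 747 CPM with 8 to 31 and 1469 CPM with 32 or more. In proton the same classes stood at 43.1, 164, 575, 651 and 827 CPM. Cmpk2 in photon stood at 13.4, 29.98, 119, 147 and 310 CPM, and in proton at 15.8, 39.3, 138, 110 and 259 CPM. From the lowest to the highest class Bst2 differed far less, from 1675 to 2701 CPM after photons and from 1331 to 2038 CPM after protons. Median UMIs per cell differed along the classes too, from 2717 to 4473 in photon and from 2164 to 3986 in proton, and their part in the pattern was not tested.

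**Figure D4:**
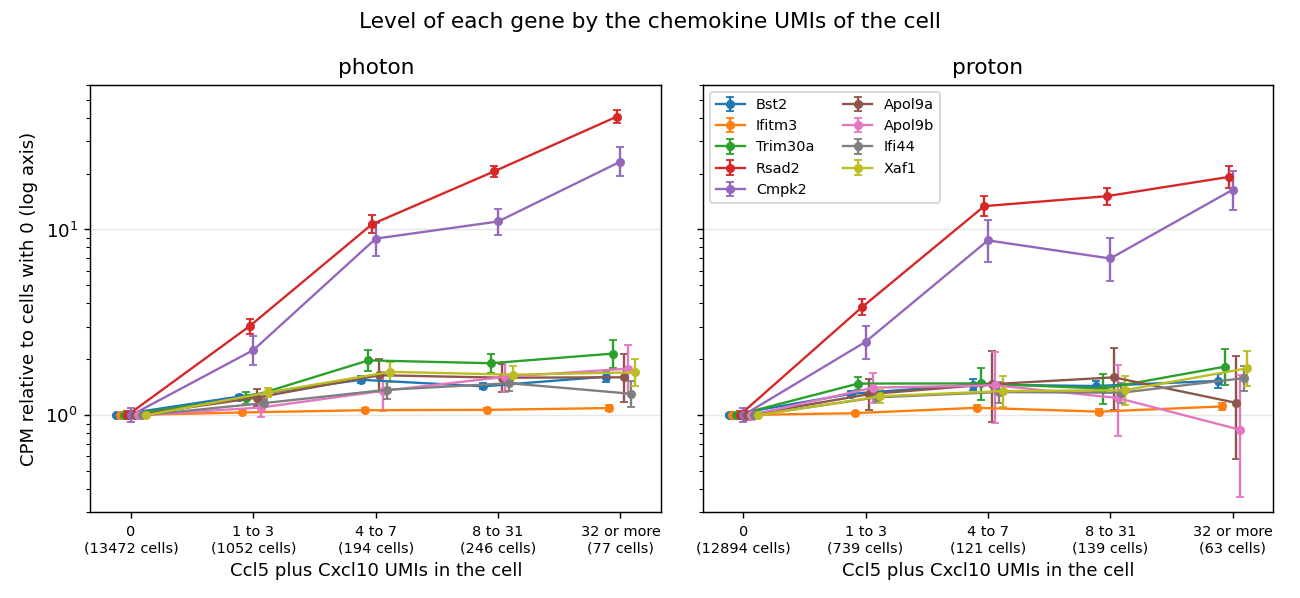
CPM of each gene relative to its CPM in cells with 0 UMIs of Ccl5 plus Cxcl10 (log axis), by the number of those UMIs in the cell, in photon (left) and proton (right), with exact 95% counting intervals and the number of cells under each class. Rsad2 and Cmpk2 climb more than 10-fold in both libraries. The other 7 genes stay within about 2-fold.

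The 2 chemokines did not mark the same barcodes. In photon 174 barcodes had at least 8 Ccl5 UMIs and under 8 of Cxcl10, 115 the reverse, and 30 at least 8 of both. Rsad2 stood at 404 CPM in the first, 968 CPM in the second and 3544 CPM in the third (3242 to 3866), where 30 of 30 barcodes held it. Trim30a stood at 229, 354 and 426 CPM in the same order. In proton the 3 kinds held 185, 9 and 6 barcodes, and Rsad2 stood at 574, 1657 and 3110 CPM. With Ccl5 alone the Rsad2 intervals were 520 to 632 CPM in proton and 360 to 451 CPM in photon. With Cxcl10 alone they were 1245 to 2162 CPM and 886 to 1055 CPM, and they overlapped where both passed. The share of barcodes did not show this order: with Ccl5 alone 42.2% held Rsad2 in proton (35.0% to 49.6%) and 47.1% in photon (39.5% to 54.8%). The CPM intervals treat UMIs gathered in few barcodes as separate counts. Median UMIs with Ccl5 alone were 3217 in proton and 4057 in photon, so no order within kinds is read. The proton library had 15 barcodes with at least 8 Cxcl10 UMIs against 145 in photon. The interferon transcripts Ifnb1, Ifnl2 and Ifnl3 were rare, at 0.341, 0.767 and 0.533 CPM in photon, and most of their photon UMIs lay in chemokine-rich barcodes: 93.8% of Ifnb1, 91.7% of Ifnl2 and 100% of Ifnl3. In proton the chemokine-rich barcodes held 6 of 16 Ifnb1 UMIs, 6 of 9 Ifnl2 UMIs and 1 of 5 Ifnl3 UMIs, so most Ifnb1 and Ifnl3 UMIs lay outside them. The 12894 proton cells with 0 UMIs of both chemokines held 0 Ifnb1, 2 Ifnl2 and 0 Ifnl3 UMIs. The Ifnb1 and Ifnl3 UMIs outside thus lay in cells with chemokine UMIs below the cut of 8. In photon 2 to 6 chemokine-rich barcodes held each transcript and in proton 1 to 3, so these shares describe a handful of cells.

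Cells of all libraries were also clustered together on genes that excluded the 9 genes and listed interferon, chemokine and cell cycle genes. Genes off these lists could still differ from control: Gm4951 had ratios of 148 in photon and 137 in proton. Plac8 had 72.9 and 69.9 and was a leading gene of cluster 4, so the clusters are not free of the difference between libraries. Of the resulting clusters 7 held at least 100 cells in every library, and they are named by number. The mixture differed strongly: cluster 0, led by Orm3 and Aox3, held 61.2% of control, 25.8% of photon and 4.66% of proton cells, and cluster 2, led by Anks1b, Pcdh9 and Gria3, held 0.885%, 7.49% and 45.6%. Cluster 1 was cycling-like, with 8 of 8 cycling markers higher than in other cells and 4 of them among its 10 leading genes, and cluster 6 squamous-like with 8 of 9. Cluster 4, led by Igfbp2 and Apoe, also had 8 of 8 cycling markers higher, with a median log2 fold of 1.54 beside 2.26 in cluster 1, but none among its leading genes, and stays unnamed. Cluster 3, led by Klk1b11 and Crisp3, stays unnamed too, with 7 of 8 luminal duct markers higher (median log2 fold 1.14) and 3 of 5 granular tubule markers (2.05). Cluster 5 held shallow barcodes, with median UMIs of 935, 883 and 839.5, and has no name.

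Within clusters, ratios were read only where the irradiated library held at least 10 UMIs of the gene, a minimum chosen after the data were seen, which left out cluster 5 for Cmpk2 in both libraries and for Rsad2, Apol9a and Apol9b in proton, and cluster 6 for Cmpk2 in proton. That minimum was set on the irradiated library, so a cluster where a gene was low there could not be read. Cmpk2 in cluster 5 had 0 UMIs in proton and 1 in control, and the other values left out were above control on few UMIs. In all the clusters read, each of the 9 genes was above control in both irradiated libraries. The difference was at least 1.5-fold for 8 genes, and for Ifitm3 in 6 of 7 clusters. For Ifitm3 the squamous-like cluster 6 had ratios of 1.39 in photon and 1.38 in proton. The share of all genes that reach this size within clusters was not computed. Where control held 0 UMIs, as for Rsad2 in clusters 2 and 4, the ratio is a lower bound against 3 counts in that cluster, at least 7.77-fold and 7.20-fold for Rsad2 in photon. Cluster 6 had the highest Ifitm3 level of the 7 clusters in control, 6333 CPM, and stood at 8779 CPM in photon. Bst2 ratios in photon ran from 10.3 in cluster 3, where control was at 192 CPM, to 28.0 in cluster 5, where control was at 10.5 CPM. Rsad2 was highest in cluster 3, at 3.33 CPM without irradiation, 141 CPM after photons and 117 CPM after protons, and so was Cmpk2, at 1.25, 36.1 and 32.3 CPM. In the control library 8 of the 20 Rsad2 UMIs came from cluster 3, which held 3.90% of its cells and 2399682 of its 39514768 UMIs. Apol9a and Apol9b were highest in cluster 1 of both irradiated libraries, Apol9a at 103 CPM after photons and 46.7 CPM after protons. In cluster 4 Apol9a stood at 70.6 and 45.4 CPM and Apol9b at 75.3 and 47.0 CPM, and after protons the intervals of clusters 1 and 4 overlapped for both genes.

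In photon 6 of the 9 genes were lowest in the shallow cluster 5, with Bst2 at 293 CPM, Ifitm3 at 1215 CPM, Xaf1 at 115 CPM, Apol9a at 34.2 CPM, Apol9b at 27.0 CPM and Cmpk2 at 7.12 CPM. The other 3, Rsad2, Trim30a and Ifi44, were lowest in cluster 4. Only for Bst2, Ifitm3 and Trim30a was the interval of the lowest cluster clear of all other clusters with at least 100 cells in every library. Cmpk2 in cluster 5 rests on 5 UMIs, below the minimum used for ratios. Trim30a in the cluster 5 barcodes stood at 172 CPM, within the range of 84.5 to 196 CPM over the clusters, and Ifi44 at 245 CPM, within 188 to 386 CPM. In control cluster 5 had Bst2 at 10.5 CPM beside 96.3 CPM in the whole library and Trim30a at 6.14 beside 4.63 CPM.

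The difference between proton and photon in Apol9a and Apol9b was present inside clusters. Of the 6 clusters with at least 10 UMIs in both libraries, proton was below photon in 6 for each gene, by at least 1.5-fold in 6 for Apol9a and in 5 for Apol9b. The share of all genes this much lower in proton within clusters was not computed. Over whole libraries it was 16.3%, and the 2 genes are not independent observations. The ratios of Apol9a ran from 0.313 in cluster 0 to 0.644 in cluster 4, those of Apol9b from 0.475 in cluster 0 to 0.668 in cluster 6. In cluster 2 Apol9a stood at 67.8 CPM after photons and 30.6 CPM after protons. Bst2, Xaf1 and Ifitm3 were also below photon in 7 of 7 clusters, by less than 1.5-fold in each. Ifi44 was above photon in 6 of 7 clusters, the exception being cluster 6 at 0.862. Rsad2 was below photon in 5 of 6 clusters, by at least 1.5-fold in 2, with a lowest ratio of 0.490 in cluster 6. The exception was cluster 2 at 1.11 (0.956 to 1.29), which held 45.6% of proton cells. Trim30a ratios ran from 0.633 to 1.13, with 4 of 7 clusters below photon.

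**Figure D5:**
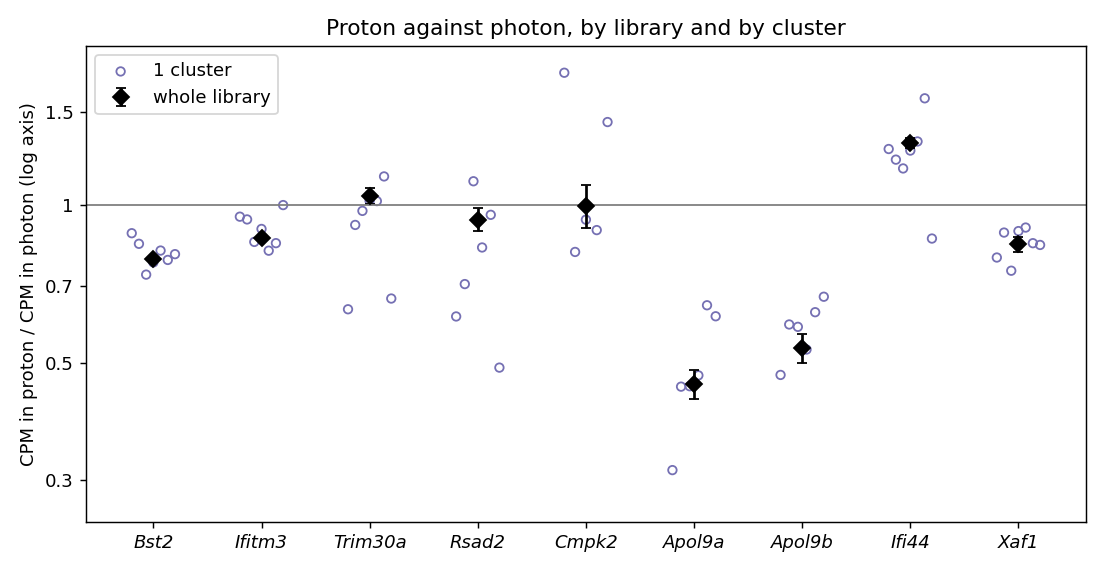
Ratio of proton CPM to photon CPM (log axis) for each gene over whole libraries (diamonds, 95% counting intervals) and in each cluster with at least 10 UMIs of the gene in both libraries (open circles). All Apol9a and Apol9b points lie below 0.7, the Bst2 and Xaf1 points between 0.7 and 1, and the Ifi44 points above 1 in all but 1 cluster.

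With the same cluster weights in every library, Rsad2 was 102-fold higher in photon and 83.5-fold in proton, and Cmpk2 55.7-fold and 56.3-fold, so their ratios were more than 1.5 times smaller than as sampled. With 20 and 9 control UMIs spread over clusters, these weighted values rest on single UMIs in several of them. For the other 7 genes equal weights moved no ratio by 1.5 times, with Bst2 at 14.4 and 11.8 and Apol9a at 0.453 of photon in proton. Between the irradiated libraries equal weights turned Trim30a from 1.04 to 0.881 of photon, and median-of-ratios scaling to 0.987, so no order is read for it. Leaving out the 5% of barcodes with the most UMIs in each library moved Cmpk2 to 147-fold and 146-fold, and no other ratio by 1.5 times.

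Other genes of the pathway are given by fixed lists and the same 1.5-fold size, to be read beside 5.75% of all genes higher and 8.19% lower in photon, and 10.8% and 14.9% in proton. Genes that pass the 25 CPM minimum only through the irradiated library had to be higher there. Of 36 other restriction factors and effectors, 19 passed the 25 CPM minimum in the photon comparison, with 16 higher and 1 lower, Apobec3, with 199 CPM in control against 120 CPM in photon. In proton 18 of 22 were higher and 1 lower, and Apobec3 stood at 113 CPM. Of these genes 10 in each comparison had at least 25 CPM in control itself, and 7 of the 10 were higher in each. Isg15, a ubiquitin-like modifier, stood at 49.2 CPM without irradiation, 1267 CPM after photons and 680 CPM after protons, and the RNA-binding effector Ifit3 at 1.27, 385 and 198 CPM. Proton was at 0.537 of photon for Isg15 and 0.515 for Ifit3, close to the values of Apol9a and Apol9b, while the kinase Eif2ak2, which stops translation, was at 0.892. Between proton and photon this list had 5 genes higher and 5 lower of 24, near the 22.7% and 16.3% of all genes.

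Of 7 measured signalling and transcription factors 4 were higher in each irradiated library and 0 lower. Of the 6 with at least 25 CPM in control itself, 3 were higher in each. Irf7, which drives interferon genes, stood at 29.9 CPM without irradiation, 399 CPM after photons and 382 CPM after protons. Of 3 measured receptor chains 0 were higher, and the interferon gamma receptor chain Ifngr1 was lower in proton, at 90.4, 66.3 and 50.5 CPM. Of 4 measured negative regulators 2 were higher, Isg15 again and Usp18, the protease that removes it, at 12.5, 111 and 81.9 CPM. Of the 3 with at least 25 CPM in control itself, 1 was higher in each irradiated library. None (0) of 13 interferon ligand genes passed the minimum.

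Paralogs of the 9 genes did not all follow them. Of 25, 4 passed the minimum in the photon comparison, with 2 higher and 1 lower. Of the 2 with at least 25 CPM in control itself, 0 were higher. Ifitm2, the neighbour of Ifitm3 with the same role in entry, stood at 900, 1246 and 932 CPM, ratios of 1.38 and 1.04, and Ifitm10 at 85.5, 56.8 and 49.4 CPM. Trim12a, of the same gene cluster as Trim30a, stood at 21.6, 54.4 and 50.9 CPM. Xiap, the binding partner of Xaf1, stood at 60.3, 52.2 and 85.2 CPM. Among other enzymes of nucleotide phosphorylation, 2 of 7 were higher in photon and 2 higher and 1 lower in proton. Cmpk1, the cytosolic counterpart of Cmpk2, was the one lower in proton, at 92.0, 86.1 and 49.3 CPM, and 1 of 7 is near the 14.9% of all genes.

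The genes outside the set with the most similar pair of ratios to control were sought among 5838 genes by distance in the 2 log2 ratios. For Rsad2 they were Gm4951 and Ccl5, for Cmpk2 Ifit3b and Plac8, for Trim30a H2-Q7 and Ifit1, and for Bst2 Irf7 and Isg15. For Apol9a they were Isg15 and Cxcl10, for Apol9b Isg15 and Irf7, for Ifi44 Ifi203 and Irf7, and for Xaf1 Slfn2 and Trim30d. Ifitm3 stood apart, with the replication helicase gene Mcm6 (1.92 and 1.75) and the keratin gene Krt8 (1.95 and 1.64) nearest. Both ratios share the control library. Over 21 sums of 1 library and 1 cluster, the level of the 9 genes together, which is mostly Ifitm3, followed Ly6a most closely, with a Pearson correlation of log2(CPM + 1) of 0.971, given as a description since sums of 1 library share its depth.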

How the data were processed

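Libraries were made with a 10x Genomics 3' kit from 45000 sorted cells per sample, per the labels' protocols. The authors deposited UMI counts per gene and barcode, unnormalised. Per the submitters' processing notes reads were processed with Cell Ranger 7.0.1 and mm10, and the file headers name 7.0.0. The sources used here do not say whether intron reads were counted. Cells with at least 500 genes and at most 20% mitochondrial UMIs were kept, doublets were not removed, and counts were summed per library and scaled to CPM without division by length. Total counts per library were 36692939 to 46936995. Positions came from GENCODE mouse release 21, with 32158 of 32285 IDs matched. Intervals are exact Poisson (conditional binomial) for ratios and Clopper-Pearson for shares. The number at 1.5-fold was counted by size, since 1 library per group allows no test. Clusters used scanpy 1.11.5 and leidenalg 0.10.2 (2000 variable genes, 30 components, 20 neighbours, resolution 0.5). Ratios and thinning were tested on simulated data. The genes and lists were chosen with earlier results of these data known. Named genes were all 9 members, at most 3 per list by mean CPM (Apobec3, Xiap, Cmpk1 and Usp18 for a count or role), and nearest genes by ratio. Alternatives covered scaling, cell filters, deep barcodes, chemokine thresholds and thinning.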

Additional observations from a re-analysis of the deposited data

How the results depend on the processing

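In each comparison with control all 9 genes stayed at least 1.5-fold higher under every alternative cell filter, scaling, cluster weighting and barcode exclusion, and no ratio changed direction past that size. Scaling by median-of-ratios size factors shifted all log2 ratios by 0.10 in photon, 0.03 in proton and -0.07 between them. Raising the fold to 2 left 1 gene lower in proton than in photon, Apol9a. The share of UMIs in chemokine-rich barcodes moved with their definition by construction. With at least 4 UMIs of Ccl5 plus Cxcl10 it was 6.03% for the 9 genes, 47.1% for Rsad2 and 36.4% for Cmpk2 in photon, and 4.13%, 30.9% and 23.5% in proton. With at least 16 UMIs it was 2.34%, 29.7% and 19.8% in photon and 1.74%, 15.3% and 13.0% in proton. Without the 5% of barcodes with the most UMIs it was 3.26%, 35.2% and 24.0% in photon, and 2.14% for the 9 genes and 13.5% for Cmpk2 in proton. The next definitions were chosen after seeing the data. With Ccl5 alone the shares were 2.43%, 22.7% and 14.8% in photon, and 2.49% for the 9 genes and 19.3% for Rsad2 in proton. With Cxcl10 alone they were 1.98%, 28.2% and 20.7% in photon and 0.266%, 5.77% and 4.94% in proton, where 15 barcodes were left. After thinning to 2000 UMIs they were 2.17%, 28.6% and 17.7% in photon and 1.76%, 13.7% and 9.16% in proton. Under each of these definitions Rsad2 and Cmpk2 exceeded the share of all UMIs in the same barcodes. No paired analysis was possible because each group is 1 library. Depth limits the control values of Rsad2 (20 UMIs) and Cmpk2 (9 UMIs), and the spread between cultures is unknown.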
